A study of Arabidopsis thaliana with 4 samples.

Results

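The 36 genes described here were 29 *Aux/IAA* genes, which encode short-lived repressors of auxin-responsive transcription, and 7 genes of the auxin-conjugating *GH3* enzymes of *Arabidopsis thaliana*. They were chosen by locus identifier as members of these families, by a rule that used no measured value but with earlier results of these data known, and were represented by 37 of the 37478 gene probes and by 36 of the 25665 loci on the array. Total RNA was labelled with Cy3 and hybridized to one-colour 44k oligonucleotide arrays, 1 array per sample. Meristem-enriched tissue (2 biological replicates) was set against whole young leaves (2 biological replicates), both dissected by hand from *clv3-9* plants in the Columbia background that had grown on soil for 9 weeks in short days (8 h light per day, 16 h dark). All plants carried the *clv3-9* point mutation in *CLAVATA3* (*CLV3*), the peptide gene that limits the stem cell population, so that both tissues came from plants with an enlarged shoot meristem and wild-type tissue was not part of the comparison.

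Auxin acts in the nucleus by removing repressors. The Aux/IAA proteins bind AUXIN RESPONSE FACTOR (ARF) transcription factors and recruit the corepressor TOPLESS (TPL), which keeps ARF target genes silent. Auxin joins the receptors TIR1 and AFB to a short degron in the Aux/IAA protein, after which the repressor is degraded. Many *Aux/IAA* and *GH3* genes are themselves targets of ARFs, and the GH3 enzymes studied here attach amino acids to indole-3-acetic acid, the main natural auxin, which lowers the pool of free hormone. In the shoot apex, local auxin maxima mark the sites where new leaves and flowers are initiated.

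The dissection was checked with marker genes. All 6 meristem markers (*STM*, *CLV3*, *WUS*, *KNAT1*, *KNAT2* and *KNAT6*) were higher in meristems, by 4.97 to 6.73 on the log2 scale for the 5 that were well above background in leaves and at least 33.0-fold for *WUS*, which was not, and their summed normalized signal was 15908 and 21139 on the meristem arrays against 269 and 292 on the leaf arrays. All 4 leaf mesophyll markers were lower in meristems, with sums of 83878 and 59954 on the meristem arrays against 757742 and 637313 on the leaf arrays, and *CA1*, a carbonic anhydrase of photosynthetic cells, was well above background on 1 of the 2 meristem arrays. The floral identity genes *LFY* and *AP1* were higher in meristems (log2 differences 5.70 and 3.41) whereas *AG* was well above background on 1 meristem array and on no leaf array, and the sum of these 3 genes was 568 and 949 on the meristem arrays against 32.3 and 30.4 on the leaf arrays. Of 5 vascular markers, *PXY* was higher (1.69), *SUC2* was lower (-1.74) and 3 did not pass the test, with sums of 8619 and 9469 on the meristem arrays against 11743 and 12178 on the leaf arrays. The trichome gene *GL1* was higher in meristems (2.61), *GL2* did not pass the test, and their sum was 1315 and 758 on the meristem arrays against 457 and 493 on the leaf arrays. The part of these cell types in the differences of the auxin genes was not tested. Between 60.1% and 63.3% of probes were well above background on each array, replicates correlated across loci with r = 0.991 for meristem and 0.994 for leaf, and all 4 arrays lay on 1 slide. With 2 arrays per tissue the number of arrays limits the precision, and an exact permutation test for a single gene could not go below p = 0.333, so that the p values come from a limma fit across all loci with Benjamini-Hochberg adjustment.

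The *Aux/IAA* family was split between the tissues and the *GH3* genes were not. Of 35 members tested, 28 differed between meristem and leaf at an adjusted p of at most 0.05 (limma, Benjamini-Hochberg), 16 of them higher and 12 lower in meristems. This share of 80% stood against 48.6% of all 23259 loci tested (27.1% higher and 21.6% lower in meristems). A fitted difference of at least 4-fold was found for 13 members, 8 higher and 5 lower in meristems, or 37.1% against 13% of all loci (6.55% higher and 6.41% lower). For probes not well above background on either array of the lower tissue the fitted value is no measured size, and only a lower bound can be given. With bounds in place of such values 11 members remained past 4-fold, 6 higher and 5 lower, or 31.4% against 11% of all loci (5.26% higher and 5.77% lower), since the bounds of *IAA31* and *IAA33* lay under 4-fold. In 32 of the 35 members the meristem and leaf arrays did not overlap, a share of 91.4% against 79.3% of all loci. All 6 *GH3* genes that could be tested were higher in meristems (100% against 27.1% of all loci), with a median log2 difference of 2.21. Among the 29 *Aux/IAA* genes 10 were higher (34.5% against 27.1% of all loci), 12 were lower (41.4% against 21.6%) and 7 did not pass. The share that was higher thus lay nearer to that of all loci than the share that was lower. The family's median of 0.07 lay close to the median of 0.10 over all loci, with a median size of difference of 1.22 against 0.59 for all loci.

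**Figure D1:**
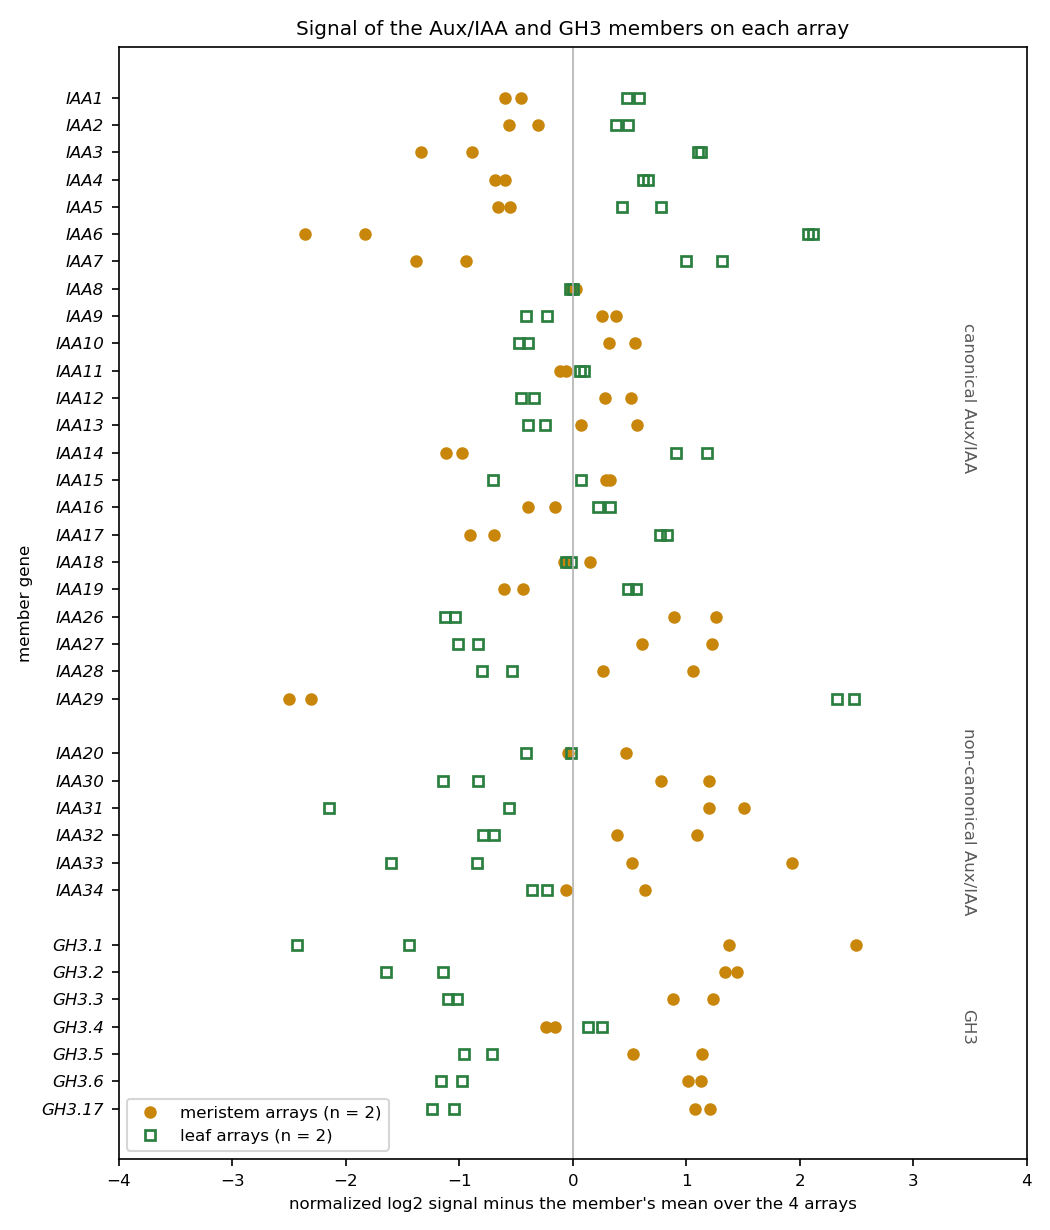
Normalized log2 signal of each member on the 2 meristem arrays (filled circles) and the 2 leaf arrays (open squares), drawn as the deviation from that gene's mean over the 4 arrays, with genes grouped into canonical *Aux/IAA*, non-canonical *Aux/IAA* and *GH3*. The meristem and leaf symbols separate in both directions among canonical *Aux/IAA* genes, whereas all *GH3* genes except *GH3.4*, which reached the level well above background on 0 arrays, have their meristem symbols on the right.

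In whole tissue, fewer expressing cells and less RNA per cell cannot be told apart. Members were tested only if signal remained after background subtraction on both replicates of at least 1 tissue, and 3 members (*IAA15*, *IAA31* and *IAA33*) met this through the meristem arrays alone and none through the leaf arrays alone. Restricted to the 30 members well above background on all 4 arrays, 13 were higher and 12 lower in meristems (83.3%), against 52.1% of the 18558 loci that met the same condition. The calls depended on the background correction. When the normexp method replaced the scanner software's processed signal, 9 of the 28 calls remained, while 7.96% of all loci were called. That alternative also added an offset of 50 to every signal, which by arithmetic shrinks the differences of dim probes. It cannot separate the effect of the correction from that of the offset. Some bright members also lost their calls with little change in size. The difference of *IAA4* went from -1.28 to -1.20 (limma adjusted p = 0.0601) and that of *IAA27* from 1.85 to 1.79 (limma adjusted p = 0.0814). *IAA26*, also bright, kept its call at 2.12. Why adjusted p values rose with normexp was not tested.

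*IAA29* and *IAA6* showed the largest differences of any member, and both were lower in meristems. *IAA29* (AT4G32280), a gene known to be induced in shade through PIF transcription factors, had a normalized log2 signal of 5.74 and 5.94 on the meristem arrays against 10.72 and 10.57 on the leaf arrays. Both leaf arrays stood far above both meristem arrays, and replicates of a tissue lay close together. The transcript was 28.0-fold lower in meristems (log2 difference -4.81, SE 0.14, limma adjusted p = 0.000464). *IAA6* (AT1G52830), also known as *SHY1*, had 4.57 and 4.04 on the meristem arrays against 8.48 and 8.52 on the leaf arrays, an 18.3-fold lower signal in meristems (-4.19, SE 0.21, limma adjusted p = 0.000738). The *IAA29* probe was placed by the array design on chromosome 4 at 15584588 to 15584647 and the *IAA6* probe on chromosome 1 at 19676415 to 19676356, with no genome build named in the files. With normexp the difference of *IAA6* was -2.01 with an adjusted p of 0.140 in the same limma fit, and that of *IAA29* was -3.33 with 0.0360.

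*IAA3*, *IAA7* and *IAA14* formed the rest of the group that was at least 4-fold lower in meristems. *IAA7* (AT3G23050, *AXR2*), whose stabilizing mutation gives auxin-resistant and dwarfed plants, had 9.73 and 10.17 on the meristem arrays against 12.10 and 12.42 on the leaf arrays. *IAA3* (AT1G04240, *SHY2*), which links cytokinin to auxin transport in the root, had 9.52 and 9.07 on the meristem arrays against 11.51 and 11.54 on the leaf arrays. *IAA14* (AT4G14550, *SLR*), a repressor of lateral root initiation, had 7.44 and 7.58 on the meristem arrays against 9.47 and 9.74 on the leaf arrays. In each of the 3 genes both leaf arrays exceeded both meristem arrays. The transcripts were 4.97-fold (*IAA7*, log2 difference -2.31, SE 0.22, adjusted p = 0.00241), 4.70-fold (*IAA3*, -2.23, SE 0.19, adjusted p = 0.00188) and 4.28-fold lower in meristems (*IAA14*, -2.10, SE 0.16, adjusted p = 0.00136, all limma).

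The other 7 canonical *Aux/IAA* genes lower in meristems differed by less than 4-fold. *IAA17* (AT1G04250, *AXR3*), a classical repressor defined by auxin-resistant mutants, had 9.45 and 9.24 on the meristem arrays against 10.97 and 10.91 on the leaf arrays, and was 3.03-fold lower in meristems (-1.60, SE 0.14, limma adjusted p = 0.00186). *IAA5* (AT1G15580) had 7.14 and 7.03 on the meristem arrays against 8.47 and 8.13 on the leaf arrays (-1.22, SE 0.17, limma adjusted p = 0.00642). *IAA1* (AT4G14560, *AXR5*), an early auxin-induced gene, had 9.29 and 9.15 on the meristem arrays against 10.33 and 10.23 on the leaf arrays (-1.06, SE 0.13, limma adjusted p = 0.00461). The meristem and leaf arrays of these genes did not overlap. *IAA19* (AT3G15540, *MSG2*), which acts in tropic growth of the hypocotyl, had 9.18 and 9.00 on the meristem arrays against 10.10 and 10.17 on the leaf arrays (-1.04, SE 0.13, limma adjusted p = 0.00496). *IAA2* (AT3G23030) had 11.08 and 11.34 on the meristem arrays against 12.03 and 12.14 on the leaf arrays (-0.87, SE 0.15, limma adjusted p = 0.0117). Both leaf arrays were the higher ones in each. *IAA4* (AT5G43700) and *IAA16* (AT3G04730) completed this group with differences of -1.28 (adjusted p = 0.00232) and -0.55 (adjusted p = 0.0396, both limma). The call of *IAA16* was kept in 5 of 15 alternatives. It was lost, among others, with quantile normalization (-0.24, limma adjusted p = 0.190) and with the replicate number as a block (limma adjusted p = 0.0671). The difference of *IAA16* was -0.50 without leaf replicate 1, -0.61 without leaf replicate 2 and -0.43 without meristem replicate 1. It was 0.17 when arrays were scaled to the spike-in controls. Without leaf replicate 2 the adjusted p of *IAA2* was 0.0625.

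Of the genes lower in meristems, 6 lie side by side in pairs. *IAA3* and *IAA17* on chromosome 1, *IAA2* and *IAA7* on chromosome 3, and *IAA14* and *IAA1* on chromosome 4 had 0 protein-coding genes between them in the TAIR10.1 gene table. In each of the 3 pairs the first gene's probe was listed by the array design in descending and the second gene's in ascending coordinates, with probe starts 8.99, 13.6 and 12.6 kb apart. The 2 genes of a pair had differences of the same sign and unequal size. *IAA3* and *IAA17* differed by -2.23 and -1.60, *IAA2* and *IAA7* by -0.87 and -2.31, and *IAA14* and *IAA1* by -2.10 and -1.06. The gap within a pair was 0.63 (SE 0.13) for *IAA3* and *IAA17*, 1.44 (SE 0.14) for *IAA2* and *IAA7*, and 1.04 (SE 0.23) for *IAA1* and *IAA14*. Each SE came from that pair's values on 2 arrays per tissue, not from the limma fit across all loci, and is given without a test.

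**Figure D2:**
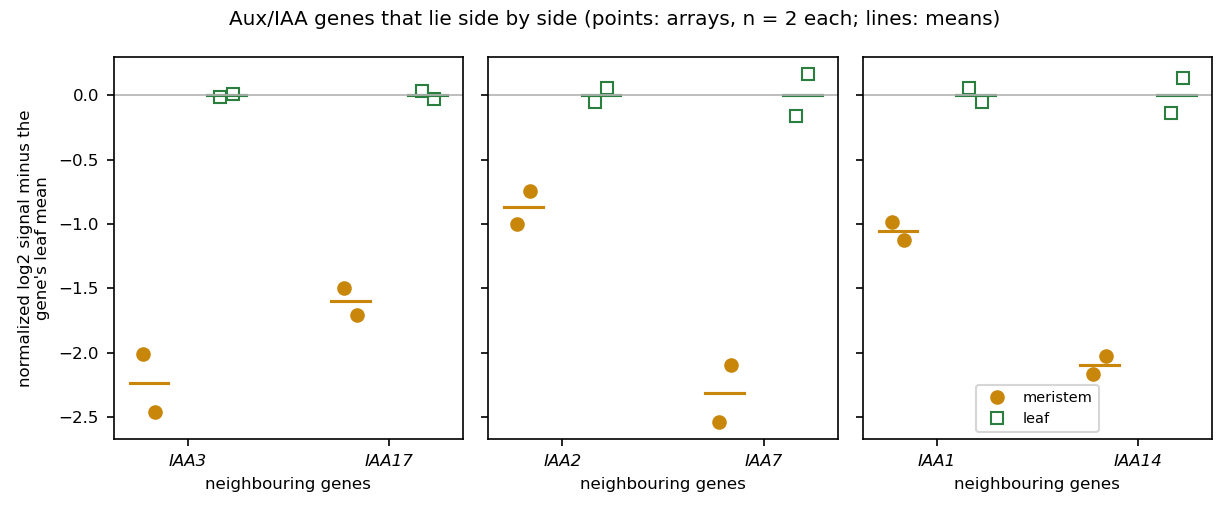
Normalized log2 signal of 6 neighbouring *Aux/IAA* genes relative to each gene's leaf mean, with meristem arrays as filled circles, leaf arrays as open squares and lines at the means (n = 2 each). All 6 genes lie below their leaf mean in meristems, at -2.23 and -1.60 for *IAA3* and *IAA17*, -0.87 and -2.31 for *IAA2* and *IAA7*, and -1.06 and -2.10 for *IAA1* and *IAA14*.

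A smaller set of canonical *Aux/IAA* genes was higher in meristems, and *IAA26*, *IAA27* and *IAA28* led it. *IAA26* (AT3G16500, *PAP1*), first found as a phytochrome-associated protein, had 13.10 and 13.47 on the meristem arrays against 11.08 and 11.17 on the leaf arrays. It was 4.46-fold higher in meristems (2.16, SE 0.17, limma adjusted p = 0.00162), with its probe placed by the array design on chromosome 3 at 5612956 to 5612821. *IAA27* (AT4G29080, *PAP2*) had 12.14 and 12.76 on the meristem arrays against 10.52 and 10.69 on the leaf arrays, 3.596-fold higher in meristems (1.85, SE 0.25, limma adjusted p = 0.00592). For both genes the lower meristem array was well clear of the higher leaf array. *IAA28* (AT5G25890), a repressor of lateral root formation, had 10.62 and 11.41 on the meristem arrays against 9.56 and 9.82 on the leaf arrays (1.33, SE 0.31, limma adjusted p = 0.0266). Its 2 meristem arrays differed by more than those of *IAA26*, and its adjusted p was 0.0855 without leaf replicate 1 and 0.0517 without leaf replicate 2. *IAA10* (AT1G04100), *IAA12* (AT1G04550, *BDL*, the partner of ARF5 in embryonic root formation) and *IAA9* (AT5G65670), whose tomato counterpart restrains fruit set, were higher by 0.87, 0.80 and 0.64 (adjusted p = 0.0101, 0.0137 and 0.0224, limma). Of 15 alternatives 12, 10 and 9 kept these calls of *IAA10*, *IAA12* and *IAA9*. Those of *IAA12* and *IAA9* were lost with median scaling (differences 0.50 and 0.34, limma adjusted p = 0.0656 and 0.124). They were also lost without leaf replicate 2 (differences 0.74 and 0.73), and that of *IAA9* without meristem replicate 2 (0.58). The calls of *IAA10*, *IAA12* and *IAA9* were all lost with normexp, by the methods' t-test with Benjamini-Hochberg adjustment, and without leaf replicate 1. In that last fit the differences were 0.83, 0.86 and 0.55. In all, 6 of 23 canonical genes were higher in meristems (26.1%), which is near the 27.1% of all loci, whereas 12 of 23 were lower (52.2% against 21.6% of all loci), and the median difference of the class was -0.55. This median depended on the scaling, at -0.24 with quantile normalization, -0.13 without scaling and 0.17 with the spike-in controls.

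**Figure D3:**
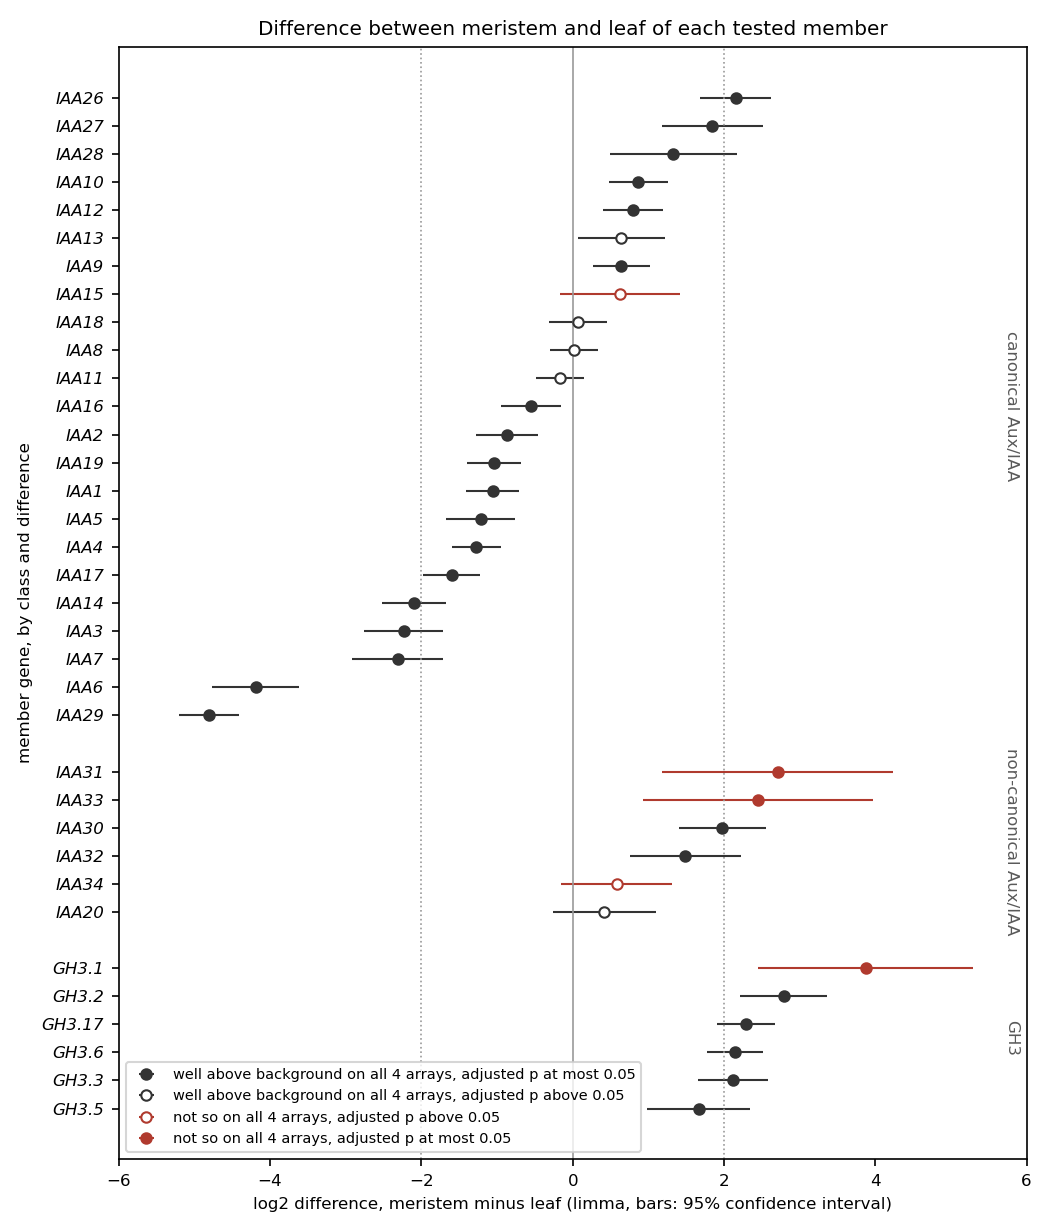
Log2 difference between meristem and leaf of each of the 35 tested members (limma estimate, bars give the 95% confidence interval), ordered by class and size, with filled symbols for an adjusted p of at most 0.05, red for members not well above background on all 4 arrays, and dotted lines at 4-fold. The red values of *IAA31*, *IAA33* and *GH3.1* are fitted differences. The bounds are 2.38-fold for *IAA31* and 5.82-fold for *GH3.1*, and the 1.41-fold of *IAA33* is no strict bound. Canonical *Aux/IAA* genes run from 2.16 for *IAA26* to -4.81 for *IAA29*, whereas the 6 *GH3* genes all lie above 1.66.

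The non-canonical *Aux/IAA* genes, which lack the degron or carry a diverged form of it, were not found lower in meristems. Of these 6 genes (*IAA20* and *IAA30* to *IAA34*) 4 were higher (66.7% against 27.1% of all loci), 0 were lower (against 21.6%) and 2 did not pass. *IAA31* and *IAA33*, which are among the 4, entered the test through the meristem arrays alone, so that this count is a description. The median difference was 1.73, or 0.87 with *IAA31*, *IAA33* and *IAA34* at their bounds, and 0.01 with normexp. *IAA30* (AT3G62100) had 6.56 and 6.98 on the meristem arrays against 4.65 and 4.95 on the leaf arrays, and was 3.93-fold higher in meristems (1.98, SE 0.21, limma adjusted p = 0.00323). *IAA32* (AT2G01200) was 2.81-fold higher, with 5.96 and 6.67 on the meristem arrays against 4.78 and 4.88 on the leaf arrays (1.49, SE 0.27, limma adjusted p = 0.0134). Both genes separated the tissues on all arrays. *IAA31* (AT3G17600) had 4.17 and 4.48 on the meristem arrays against 2.41 and 0.83 on the leaf arrays, where it was not well above background, and was at least 2.38-fold higher in meristems (limma adjusted p = 0.0199). The bound takes, for each leaf array, the dimmest signal that was well above background in place of the probe's own where that was lower. *IAA33* (AT5G57420) had 4.28 and 2.87 on the meristem arrays against 1.499 and 0.74 on the leaf arrays. It was well above background on 1 meristem array only (limma adjusted p = 0.0259). The same calculation gave 1.41-fold for *IAA33*, which is no strict bound, since the other meristem array was not well above background. These were dim signals. *IAA31* and *IAA33* each had, on 1 array, a stand-in value set by the scanner software, which enters the adjusted p. With normexp and its offset of 50, which shrinks the differences of dim probes, none of the 4 calls remained. The differences were then 0.58 for *IAA30*, 0.37 for *IAA32*, 0.01 for *IAA31* and 0.00 for *IAA33*. The calls of *IAA31* and *IAA33* also depended on single arrays. Without meristem replicate 2 the adjusted p of *IAA31* was 0.0620, and without leaf replicate 2 that of *IAA33* was 0.0687. *IAA34* (AT1G15050), well above background on 1 meristem array, had 3.72 and 3.02 on the meristem arrays against 2.85 and 2.72 on the leaf arrays and did not pass (adjusted p = 0.147, limma).

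The test was not passed by 7 *Aux/IAA* genes. *IAA8* (AT2G22670) was the most even, with 14.32 and 14.27 on the meristem arrays against 14.26 and 14.29 on the leaf arrays, overlapping between tissues. Its difference of 0.02 had a 95% confidence interval of -0.30 to 0.33, and a second *IAA8* probe differed by -0.05. *IAA18* (AT1G51950), in which stabilizing mutations disturb cotyledon and lateral root development, had 11.31 and 11.54 on the meristem arrays against 11.33 and 11.38 on the leaf arrays (0.07, interval -0.31 to 0.45). The replicates of *IAA18* in meristem enclosed both leaf values. *IAA11* (AT4G28640) had 9.44 and 9.49 on the meristem arrays against 9.65 and 9.62 on the leaf arrays, a small gap without overlap (-0.17, interval -0.49 to 0.15). *IAA20* (AT2G46990) also overlapped, with 5.49 and 6.003 on the meristem arrays against 5.13 and 5.53 on the leaf arrays (0.42, interval -0.26 to 1.10). The higher leaf array of *IAA20* was above its lower meristem array. *IAA13* (AT2G33310), a relative of *IAA12*, had 11.69 and 12.19 on the meristem arrays against 11.22 and 11.37 on the leaf arrays, without overlap, and missed the threshold (0.64, SE 0.21, limma adjusted p = 0.0681). *IAA15* (AT1G80390) had 1.93 and 1.89 on the meristem arrays against 0.90 and 1.68 on the leaf arrays, none of them well above background. Scaling to the spike-in controls instead of the 75th percentile moved the median of all loci to 0.82, and under it the difference of *IAA11* was 0.55 with a limma adjusted p of 0.0234.

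Relatives with similar sequence did not always share their difference. *IAA26* was 2.16 higher in meristems while its relative *IAA18* differed by 0.07, a gap of 2.08 (SE 0.07), and the signals of *IAA18* overlapped between tissues. *IAA30* and its relative *IAA20* differed by 1.98 and 0.42, a gap of 1.56 (SE 0.07). *IAA6* and *IAA19* were both lower in meristems, at -4.19 and -1.04, a gap of 3.15 (SE 0.18). In each of these 3 pairs the log ratio of the 2 probes within an array did not overlap between the tissues. *IAA10* and *IAA11* had opposite signs (0.87 and -0.17), although *IAA11* did not pass the test. *IAA9* and *IAA8* differed by 0.64 and 0.02, a gap of 0.62 (SE 0.12). *IAA3* and *IAA4* differed by -2.23 and -1.28, a gap of 0.96 (SE 0.27), and *IAA7* and *IAA14* by -2.31 and -2.10, a gap of 0.22 (SE 0.15), in both cases without overlap of the log ratio between tissues. The log ratio did overlap for *IAA1* and *IAA2*, which differed by -1.06 and -0.87, and for *IAA12* and *IAA13*, which differed by 0.80 and 0.64. The SE of a gap came from that pair's own values on the 4 arrays and not from the limma fit across all loci. It is itself uncertain and not comparable with the SE of single genes. None of these gaps was tested, and signal shared between probes of relatives through cross-hybridization was not tested.

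The *GH3* genes of auxin conjugation were higher in meristems throughout the set that could be tested. *GH3.17* (AT1G28130, *VAS2*), which favours glutamate as the amino acid, had 11.35 and 11.21 on the meristem arrays against 9.09 and 8.90 on the leaf arrays. It was 4.88-fold higher in meristems (2.29, SE 0.14, limma adjusted p = 0.000969), with its probe on chromosome 1 at 9827793 to 9827852 in the array design. *GH3.6* (AT5G54510, *DFL1*), whose overexpression gives a dwarfed shoot in light, had 12.30 and 12.41 on the meristem arrays against 10.12 and 10.31 on the leaf arrays, 4.41-fold higher in meristems (2.14, SE 0.14, limma adjusted p = 0.00103). Both genes had closely matched replicates and a wide gap between tissues. *GH3.3* (AT2G23170), which acts in adventitious rooting together with *GH3.5* and *GH3.6*, had 11.60 and 11.24 on the meristem arrays against 9.35 and 9.26 on the leaf arrays, 4.35-fold higher in meristems (2.12, SE 0.17, limma adjusted p = 0.00164). *GH3.5* (AT4G27260, *WES1*), which can also conjugate salicylic acid, had 12.12 and 12.72 on the meristem arrays against 10.63 and 10.88 on the leaf arrays and was 3.171-fold higher in meristems (1.67, SE 0.25, limma adjusted p = 0.00822).

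The signal of the remaining *GH3* members lay nearer the background on the leaf arrays. *GH3.2* (AT4G37390, *YDK1*) had 6.86 and 6.98 on the meristem arrays against 4.38 and 3.88 on the leaf arrays, 6.92-fold higher in meristems (2.79, SE 0.21, limma adjusted p = 0.00143). *GH3.1* (AT2G14960) had 6.17 and 5.06 on the meristem arrays against 2.24 and 1.25 on the leaf arrays, where it was not well above background, and was at least 5.82-fold higher in meristems (limma adjusted p = 0.00605). Its 2 meristem arrays were further apart than those of *GH3.2*, and both exceeded both leaf arrays. With normexp the differences were 0.90 for *GH3.2* and 0.26 for *GH3.1*, the calls of both and of *GH3.5* were lost, and *GH3.3*, *GH3.6* and *GH3.17* kept theirs at 1.94, 2.05 and 2.05. *GH3.4* (AT1G59500) had 0.69 and 0.77 on the meristem arrays against 1.07 and 1.19 on the leaf arrays, none of them well above background, and it was not tested. The differences of the 6 tested genes were positive under all 15 alternatives tried. Among 5 tested genes for other GH3 enzymes, 0 were higher (against 27.1% of all loci) and 3 were lower in meristems (60% against 21.6%). The lower ones included *GH3.11* (*JAR1*), which makes the active jasmonate-isoleucine conjugate, with a difference of -0.66. *GH3.10* differed by -1.05, and *GH3.8* was at least 2.47-fold lower in meristems. *GH3.9* (0.65) and *GH3.12* (0.50) had positive differences without overlap of the arrays and did not pass.

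**Figure D4:**
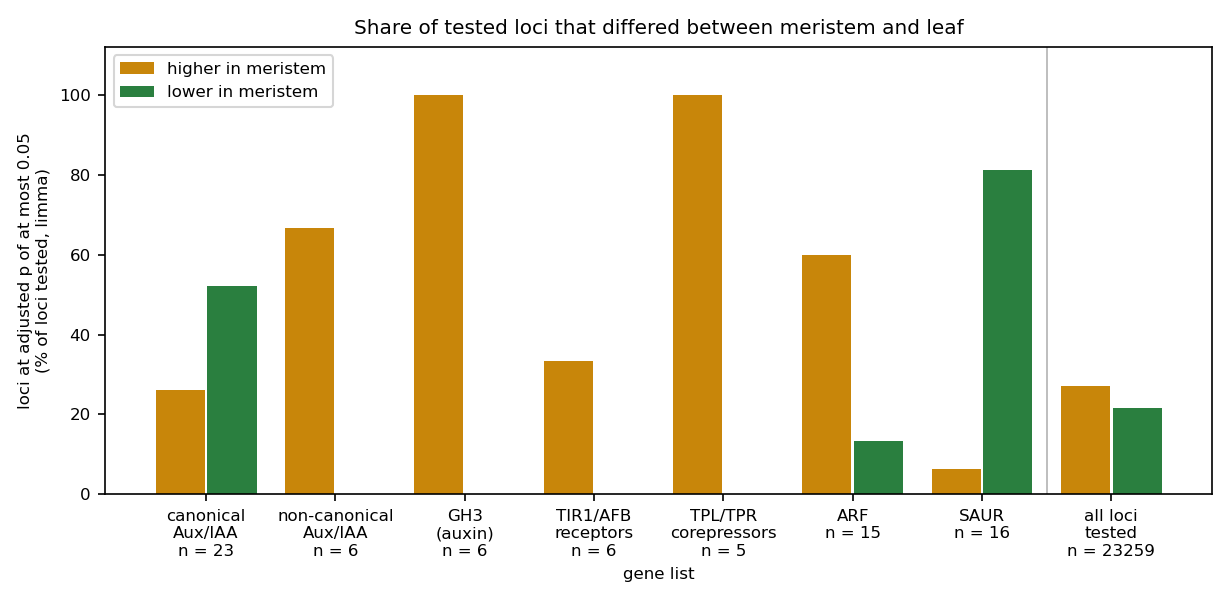
Percent of tested loci of each gene list at an adjusted p of at most 0.05 (limma), higher in meristem at left and lower in meristem at right of each pair of bars, with the number tested under each list and all 23259 tested loci at the far right. All 6 *GH3* and all 5 *TPL*/*TPR* genes were higher in meristem, and the lower calls make up 52.2% of canonical *Aux/IAA* and 81.3% of *SAUR* genes against 21.6% of all loci.

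Genes for the partners of the Aux/IAA proteins were compared by lists. All 5 corepressor genes were higher in meristems (100% against 27.1% of all loci), by 0.49 for *TPR4* to 1.02 for *TPR3*, with *TPL* at 1.00. Of the 6 receptor genes *TIR1* (0.90) and *AFB1* (1.32) were higher, 0 were lower and 4 did not pass, and this share of 33.3% was near the 27.1% of all loci. Of 15 *ARF* genes 9 were higher (60% against 27.1% of all loci). The 2 that were lower (13.3% against 21.6% of all loci) were *ARF11* at -0.67 and *ARF16* at -0.50. *ARF5*, the activator of organ initiation known as *MONOPTEROS*, was the only one past 4-fold (2.51, SE 0.14, limma adjusted p = 0.000803). ARF5 is the factor that IAA12 is best known to repress. Of 9 genes of auxin oxidation and conjugate hydrolysis 3 were higher in meristems, namely *DAO1* (0.86), *IAR3* (0.60) and *ILL5* (0.43), and 0 were lower, again 33.3% and near the share over all loci. *DAO1* encodes the dioxygenase that oxidizes auxin, and *IAR3* and *ILL5* belong to the family of amidohydrolases that act on auxin conjugates.

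Most of the listed *SAUR* genes, from a further family of early auxin-response genes linked to cell expansion, differed in the opposite direction to *GH3*. Of 16 genes whose symbol in the gene table began with SAUR, 13 were lower in meristems (81.3% against 21.6% of all loci). Of the rest 1 was higher (6.25% against 27.1%) and 2 did not pass. Genes of the family without such a symbol were not counted, and membership was not checked further. The median difference was -2.74, or -2.60 with 3 genes at their bounds. At least 4-fold lower were 10 of the 16 once bounds replaced fitted values (62.5% against 5.77% of all loci). *SAUR27* and *SAUR75*, not well above background on either meristem array, had bounds of 1.76-fold and 2.73-fold. *SAUR75* entered the test through the leaf arrays alone. *SAUR63*, which promotes elongation of hypocotyls and stamen filaments, had 5.56 and 4.88 on the meristem arrays against 10.83 and 10.61 on the leaf arrays. It was 45.4-fold lower in meristems (-5.50, SE 0.27, limma adjusted p = 0.000695). *SAUR20* had 6.02 and 6.06 on the meristem arrays against 10.26 and 10.11 on the leaf arrays, 17.7-fold lower. *SAUR36*, a gene of leaf senescence, was the exception that was higher (1.24). Several *SAUR* genes lie in tandem arrays of near-identical copies, so their probes may share signal and their values are uncertain as single-gene values.

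**Figure D5:**
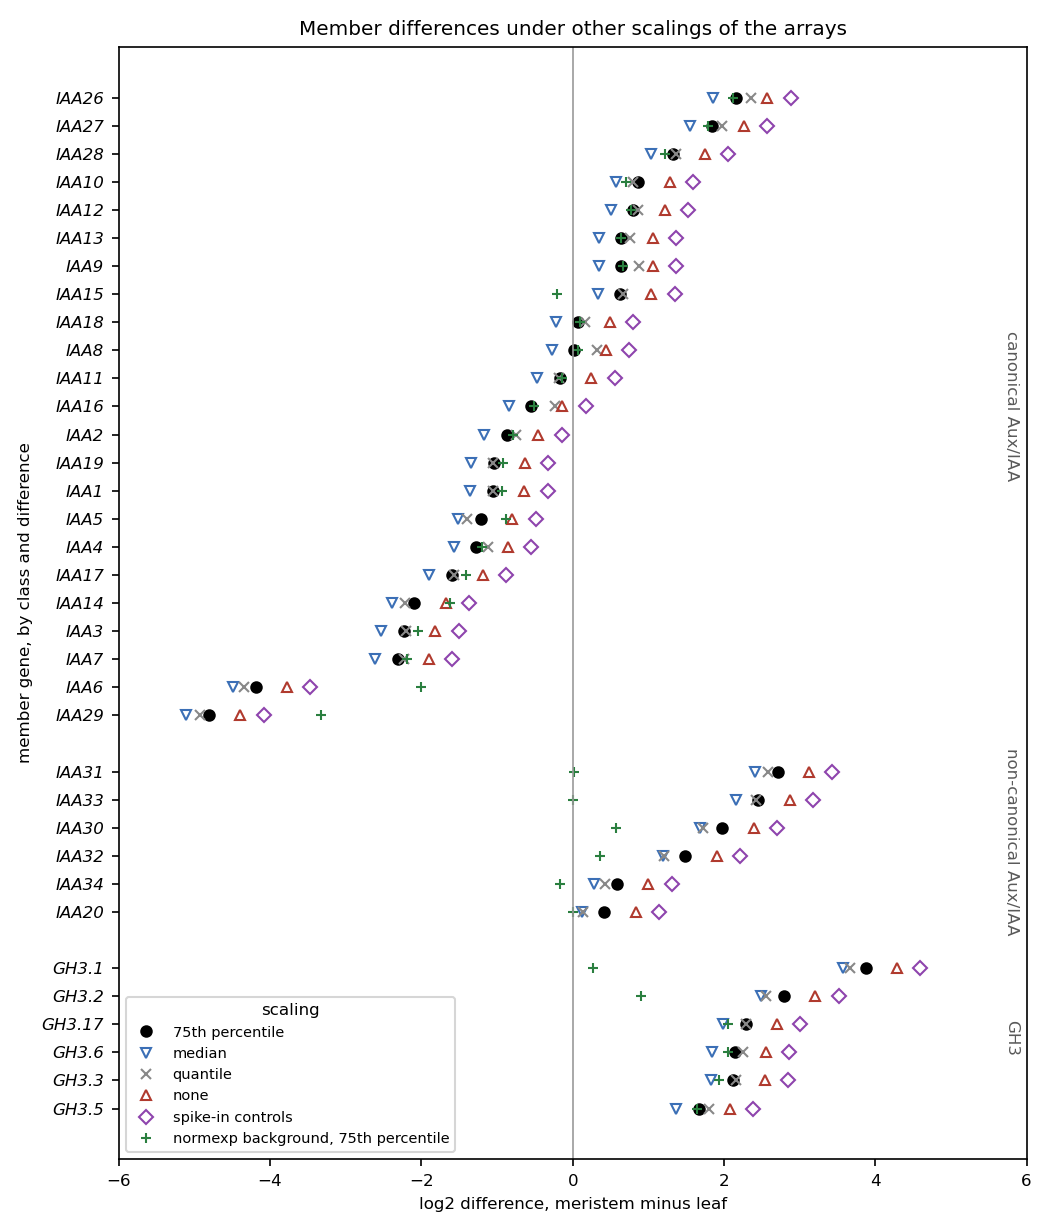
Log2 difference between meristem and leaf of each tested member under 6 treatments of the arrays, in the order of class and size used for the main fit (filled circles, 75th percentile). Scaling by a constant per array (75th percentile, median, none or spike-in controls) shifts all members together. The median of all loci runs from -0.20 with median scaling to 0.82 with the spike-in controls. Quantile normalization moves members unequally, such as *IAA8* from 0.02 to 0.32 and *IAA5* from -1.22 to -1.40. Normexp background correction (plus signs), which includes an offset of 50, draws dim members such as *GH3.1*, *IAA31* and *IAA33* towards 0.

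Of the 28 calls, 8 kept their direction and their side of the threshold under all 15 alternatives, namely *IAA3*, *IAA14*, *IAA17* and *IAA29* lower and *IAA26*, *GH3.3*, *GH3.6* and *GH3.17* higher in meristems. Replicates of meristem were further apart than replicates of leaf. Among the 30 members well above background on all 4 arrays the median SD was 0.164 in meristems and 0.0799 in leaves, and 24 (80%) were wider in meristems, against 64.1% of 18558 loci with medians of 0.132 in meristems and 0.0836 in leaves.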

How the data were processed

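The authors scanned 4 one-colour arrays and deposited the output of Agilent Feature Extraction 9.5.3.1 (protocol GE1-v5_95_Feb07, per the file headers), which gives an intensity for each spot, among them the processed signal after background subtraction. Labelling used oligo-dT primers. The intensity columns were used here, with the deposited background flags, which are 0 or 1. On each array 24.1% to 26.4% of probes carried a surrogate processed signal, a stand-in value set by the scanner software. This held for *IAA15*, *IAA31* and *IAA33* on 1 array each and for *GH3.4* on 3 arrays. From them, log2 processed signal was taken without outlier spots, averaged per probe (37478 probes) and scaled so that the 75th percentile of each array was equal, restored to the common mean. This percentile lay at a signal of 874 and 978 (meristem) against 606 and 794 (leaf). The brightest probe stood for a locus. Loci with background-subtracted signal above 0 on both arrays of at least 1 tissue were tested (23259 of 25665, 14 further ones lacking a value) with limma 3.58.1 in R 4.3.3 and Benjamini-Hochberg adjustment. A call needed an adjusted p of at most 0.05, and a 4-fold call also a log2 difference of at least 2 and signal on both arrays of the higher tissue. Differences are meristem minus leaf. Only a bound was given for probes that neither array of the lower tissue measured well above background. Where the higher tissue was well above background on only 1 array, as for *IAA33*, *IAA34* and *SAUR27*, this value is no strict bound.

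The script was tested on simulated data for this comparison with 23259 loci, where 145 of 200 changed loci (72.5%) were called and 5 unchanged ones. The simulated spread came from the limma prior of these data and was equal in both tissues. Only those 200 loci were changed, whereas 48.6% of loci were called in the data. The rates of the simulation therefore do not carry over to the data. Gene names and neighbours came from the TAIR10.1 gene table, which held all 36 members; coordinates are those of the array design. Named in full were members past 4-fold, those that differed from a neighbour or relative, and those listed in the study's text. Relatives were taken from general knowledge of the family. The members and lists were chosen with earlier results of these data known. Alternatives covered background correction (normexp with an offset of 50), scaling, filter, probe choice, the replicate block, the methods' t-test and leaving out each array. Methylation data of the study were not used here.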

Additional observations from a re-analysis of the deposited data

How the results depend on the processing

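Counts of calls moved with background correction and scaling, and the cause was not tested. *Aux/IAA* genes higher in meristems numbered 10, against 1 with normexp, 17 with spike-in scaling, 1 by the methods' t-test with Benjamini-Hochberg adjustment, 6 by it unadjusted and 6 (without leaf replicate 1) to 11 with 1 array left out. Those lower numbered 12, against 5 with normexp, 7 without scaling, 8 with spike-in scaling, 8 by the adjusted t-test and 10 to 12 with 1 array left out. By fitted values of at least 4-fold, 3 were higher (*IAA26* alone with *IAA31* and *IAA33* at their bounds), against 1 with normexp, 5 without scaling, 7 with spike-in scaling, 2 with median scaling, 2 with the filter on well above background, 1 by the t-test either way and 1 (without meristem replicate 2) to 4 with 1 array left out; 5 were lower, against 3 with normexp, 2 without scaling or with spike-in scaling and 4 to 5 with 1 array left out. *GH3* genes higher numbered 6, against 3 with normexp and 4 by the adjusted t-test, and those at 4-fold 5, against 2 with normexp or median scaling and 4 to 5 with 1 array left out. The *Aux/IAA* median of 0.07 was 0.49 without scaling and 0.80 with spike-in scaling, and the *GH3* median of 2.21 was 1.79, 2.63 and 2.94 with normexp, no scaling and spike-in scaling. Spike-in scaling reversed *IAA11* to 0.55 and *IAA16* to 0.17. Over all loci 11315 were called, against 1852 with normexp, 5610 by the adjusted t-test and 17330 with spike-in scaling, and 55.7% of calls were higher in meristems, against 29.5% with normexp, 37.2% with median scaling, 73.3% without scaling and 84.4% with spike-in scaling. Same-numbered replicates did not deviate together (r = 0.09). With the replicate number as a block 28 members were called, 17 higher and 11 lower, gaining *IAA13* and losing *IAA16*, and 10917 loci in all. Dim members near background (*IAA15*, *IAA31*, *IAA33*, *IAA34*, *GH3.1*, *GH3.4*) carry a bound or no value.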
